A study of Homo sapiens with 8 samples.

Results

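The BCL2 family genes were examined as 10 genes chosen by name, *MCL1*, *BCL2L1*, *BAX*, *BAK1*, *BOK*, *BCL2L11*, *BID*, *BAD*, *BBC3* and *PMAIP1*, in RNA-seq of HCT116 and NCI-H716, 2 established human lines from colorectal carcinoma, the second with enteroendocrine features. All 10 were found among the 63241 genes listed for NCI-H716. Of the 28043 genes used for HCT116, 4 were members, *MCL1*, *BAK1*, *BOK* and *BCL2L11*, and the other 6 lie on chromosomes outside the part of the genome analysed for that line. Each line was sequenced as 2 control libraries and 2 libraries named Test in the labels, which per the study are cells given Z325 (ZINC000101867325), a small molecule picked by docking to the fibroblast growth factor receptors. The 8 libraries were each made from about 100 cells of 1 unmodified line, with no allele or transgene. The study sets 1 concentration for the experiments after its viability assay, but the sources used here do not tie a dose or a time to the sequenced cells, and they do not say what the control cells received. The study calls the replicates of a group biological duplicates, and p-values measure the spread between these libraries only. A level in a pooled reaction cannot tell fewer cells with a transcript from less of it per cell.

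The BCL2 family decides whether the outer membrane of the mitochondrion is opened, the step that releases cytochrome c and starts the caspase cascade. Its anti-apoptotic members, such as MCL-1 and BCL-XL (from *BCL2L1*), hold the pore-forming effectors BAX and BAK in check. The BH3-only members, among them BIM (from *BCL2L11*), BID, BAD, PUMA (from *BBC3*) and NOXA (from *PMAIP1*), bind the anti-apoptotic proteins or the effectors and tip the balance towards death. In epithelial cancers growth factor signalling through ERK and AKT is known to restrain BIM and BAD, largely at the level of the protein, so the transcripts measured here show only part of that control.

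The promoters of the 4 BH3-only genes on which the results turn are shown first, *PMAIP1* and *BID* as the most abundant members with *BAD*, and *BCL2L11* as the member with the smallest p in HCT116. Each is the 150 bases before a RefSeq transcription start in GRCh38.p14, written 5′ to 3′ on the strand of the gene. Capitals mark the GC box GGGCGG, the letters bound by SP1-like factors, and TGACG, the core of the cyclic AMP response element, each on either strand.
*PMAIP1*, chr18:59899846-59899995, plus strand: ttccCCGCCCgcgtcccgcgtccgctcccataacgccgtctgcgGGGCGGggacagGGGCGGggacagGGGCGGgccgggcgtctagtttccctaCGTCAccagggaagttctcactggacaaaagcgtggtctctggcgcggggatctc
*BAD*, chr11:64284705-64284854, minus strand: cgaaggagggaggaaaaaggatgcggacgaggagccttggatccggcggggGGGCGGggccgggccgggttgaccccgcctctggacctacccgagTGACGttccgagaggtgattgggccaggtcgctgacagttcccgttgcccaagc
*BID*, chr22:17774666-17774815, minus strand: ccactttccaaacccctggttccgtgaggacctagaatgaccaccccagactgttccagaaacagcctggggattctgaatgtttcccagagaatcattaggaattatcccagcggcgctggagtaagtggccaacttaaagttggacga
*BCL2L11*, chr2:111120764-111120913, plus strand: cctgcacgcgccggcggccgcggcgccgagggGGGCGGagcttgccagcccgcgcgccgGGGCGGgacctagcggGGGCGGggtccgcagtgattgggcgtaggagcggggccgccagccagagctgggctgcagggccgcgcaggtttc
The *PMAIP1* window held 4 GC boxes and 1 TGACG core. The *BAD* window held 1 of each, and the *BCL2L11* window held 3 GC boxes. The *BID* window, taken at the start nearest to the annotated 5′ end, held neither, whereas 3 of the 5 RefSeq starts listed for *BID* had a GC box in the window before them. Among the 9 members with an entry (all but *MCL1*), 6 held a GC box against 36.8% of 35116 windows of the same length, and 3 (*BAX*, *BAD* and *PMAIP1*) held the TGACG core against 15.4%. The CCAAT box was found in 4 members and in 23.5% of windows. TGATGNAA, the letters of the ATF4 and CHOP response element, and TGTTTAC, a FOXO element, were in 0 of the 9 windows, and in 1.9% and 1.73% of all windows. No binding was measured, and the matches describe letters only.

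The total counts were 10210239 to 19738840 per library in NCI-H716. In HCT116 they were 13183792 to 13396225 in 3 libraries and 3434620 in Z325 replicate 2, over chromosomes 1 to 8 and the first 65 genes of chromosome 9. A count of 0 therefore allows a level of up to 0.152 to 0.294 CPM (counts normalised to library size) in NCI-H716, and of up to 0.874 in that shallow HCT116 library, counting error only. Of 9 colorectal epithelial markers NCI-H716 held 7 at 1 CPM or more in every library, and of 8 enteroendocrine markers 7. Blood and endothelial markers summed to at most 0.303 CPM in NCI-H716. The fibroblast list was carried there by 1 gene, *COL3A1*, at 244 to 353 CPM, with *COL1A1* at 0 in 3 libraries. In HCT116 only 4 epithelial markers are listed, and *EPCAM* was at 1420 to 1660 CPM while *CDH17*, *VIL1* and *CDX1* were each under 1 CPM.

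In NCI-H716 control cells the BH3-only genes *BID*, *PMAIP1* and *BAD* were the most abundant members, and the 3 effectors and the BH3-only gene *BBC3* were the least. Levels between genes were compared in FPKM, which corrects for transcript length. Control means were 139 ± 4.7 for *BID*, 46.1 ± 1.58 for *PMAIP1* and 26 ± 11.2 for *BAD* (SD, n = 2). *MCL1* followed at 7.67 ± 0.0636, *BCL2L11* at 2.48 ± 0.0919 and *BCL2L1* at 1.55 ± 0.255. *BAK1* stood at 0.81 ± 0.0566, *BAX* at 0.675 ± 0.0778, *BOK* at 0.05 ± 0.0141, and *BBC3* was listed at 0 in both controls. Over all 4 libraries the ranges of *BCL2L11* and *BCL2L1*, of *BAK1* and *BAX*, and of *BOK* and *BBC3* overlapped, so those neighbours are not ordered, and the other neighbours had separate ranges. *BID* lay above 90.9% of the 11669 protein-coding genes tested in this line and *BAX* above 7.86%. Ranking by TPM gave the same place to 10 of 10 genes. Within a library TPM is FPKM rescaled by 1 factor, so this is not a separate check of the order.

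**Figure D1:**
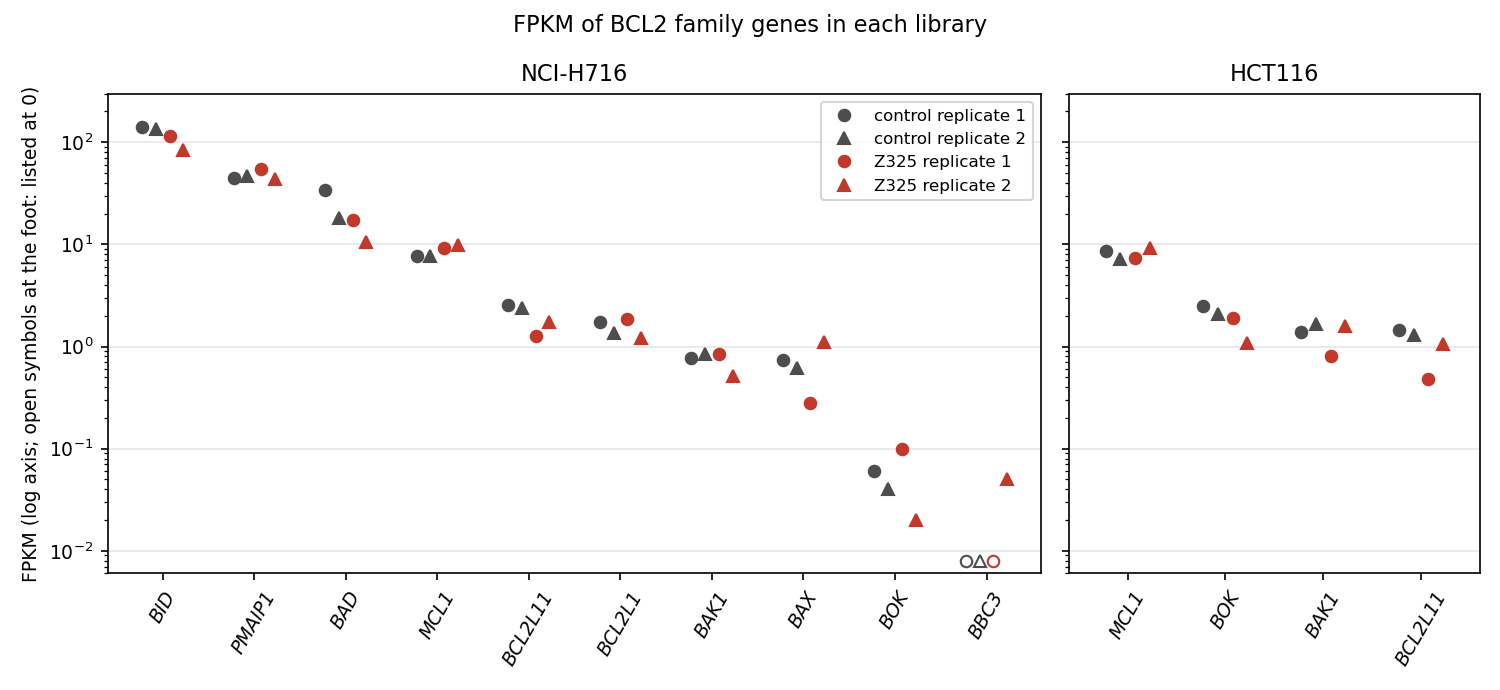
FPKM of each BCL2 family gene in each library, on a log axis, for NCI-H716 (10 genes, left) and HCT116 (4 genes, right), where grey symbols are control and red symbols Z325 libraries and open symbols at the foot are listed at 0. In NCI-H716 *BID* sits highest, at 83.9 to 142, and *BOK* and *BBC3* sit at 0.1 or lower. HCT116 values are scaled to the listed part of the genome only, so heights are not compared between the panels.

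By role, the BH3-only genes made up 95.3% and 95% of the summed FPKM of the 10 members in the NCI-H716 controls and 93.9% and 91.7% with Z325. *BID* alone gave 60.6% and 63.4% in the controls and 57.5% and 54.9% with Z325. The share of *PMAIP1*, also BH3-only, was higher with Z325, at 27% and 28.8% against 19.2% and 22.1% in the controls. That of *BAD* overlapped, at 14.5% and 8.46% in the controls and 8.75% and 6.84% with Z325. The anti-apoptotic members *MCL1* and *BCL2L1* gave 3.99% and 4.25% in the controls and 5.5% and 7.19% with Z325. The anti-apoptotic genes *BCL2L2* and *BCL2* are outside the 10, so the shares depend on the genes chosen. Their mean FPKM was 3.85 and 0.325 in the controls and 3.84 and 0.53 with Z325. The effectors gave 0.665% and 0.706%, then 0.608% and 1.08%. The shares of the BH3-only and anti-apoptotic genes did not overlap between the groups, while the effector shares did. As the main parts of 1 total, the BH3-only and anti-apoptotic shares are not independent observations. Of single genes tested in this line, 24.3% were separate and higher with Z325 by CPM, and 25.1% separate and lower. With 2 libraries against 2, an exact test of a single value cannot go below p = 0.333, so no test was applied to these shares.

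For Z325 against control, a gene was called at an adjusted p under 0.05 in edgeR's quasi-likelihood test with Benjamini-Hochberg adjustment over all genes tested in the line. In NCI-H716 7 of the 10 members had counts high enough to be tested, and 0 of the 7 were called, against 0.502% of the 14142 genes tested. At an unadjusted p under 0.05 there were 2 members, *BID* and *BAD*, where 16.9% of all genes were at that level. Both were lower with Z325, as were 9.27% of all genes. Of the 7, 3 had a positive and 4 a negative log2 fold change, where 50.6% of all genes were negative, with a median of -0.11 beside -0.01 over all genes tested. In HCT116 4 of 4 members were tested and 0 were called, against 5.78% of the 6491 genes tested, and 0 had an unadjusted p under 0.05 against 23.9%. There 1 was positive and 3 were negative, where 51.8% of all genes were negative, with a median of -0.45 beside -0.03 over all genes. DESeq2 also called 0 members in either line, giving *BAK1* no adjusted p in both.

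**Figure D2:**
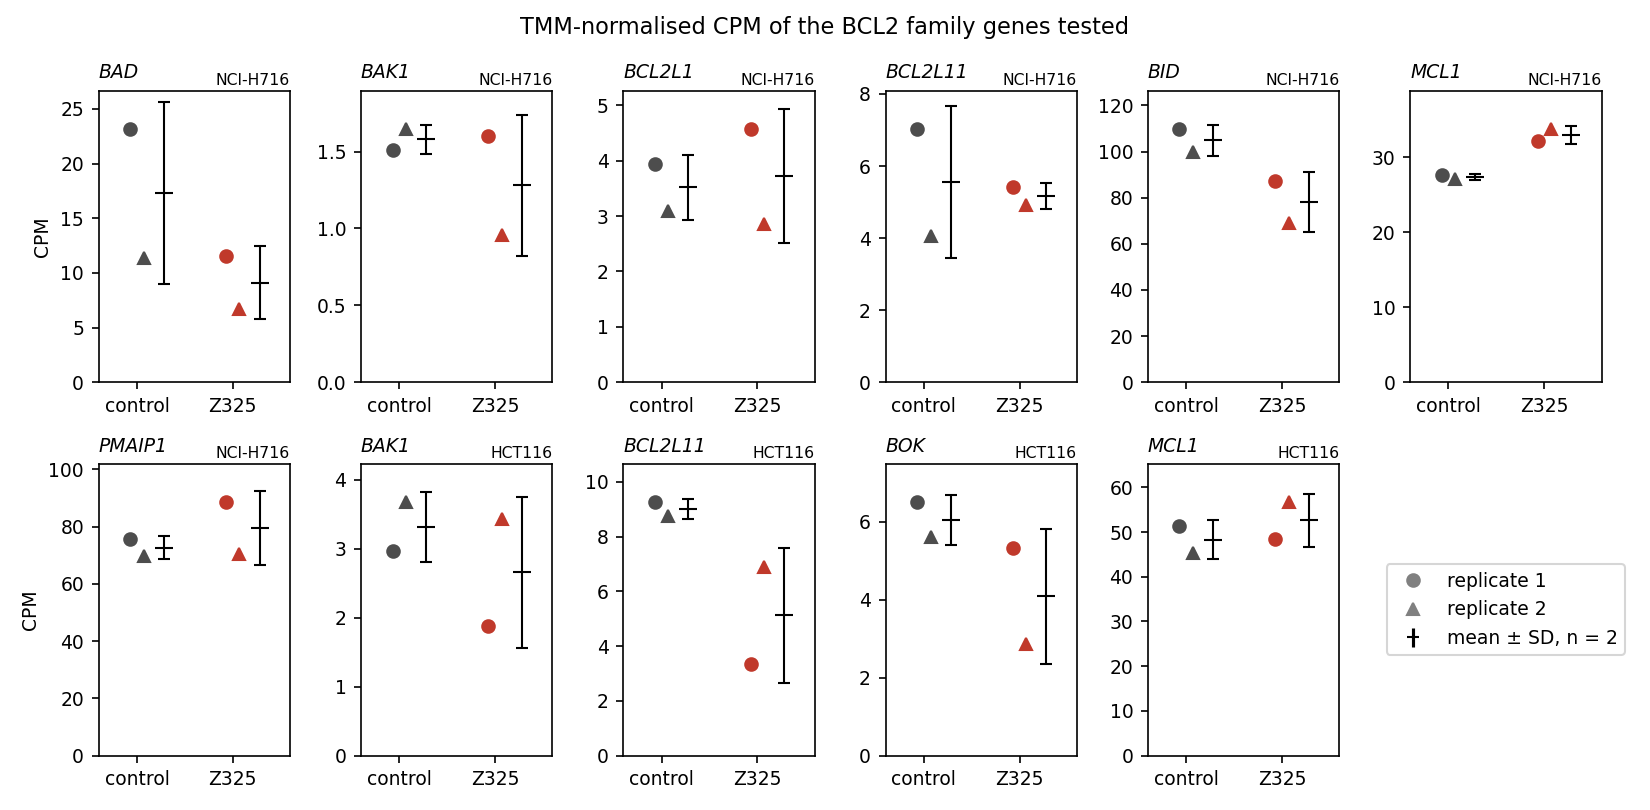
TMM-normalised CPM of the 7 members tested in NCI-H716 and the 4 tested in HCT116, one panel each with an axis from 0, with circles for replicate 1, triangles for replicate 2, and bars for the mean and SD (n = 2). *MCL1* and *BID* of NCI-H716 and *BCL2L11* and *BOK* of HCT116 have groups that do not overlap, and no member passed the adjusted threshold. Of all genes tested, 24.3% were separate and higher and 25.1% separate and lower in NCI-H716, and 29% separate and lower in HCT116.

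Among the anti-apoptotic genes, *MCL1* (ENSG00000143384, chr1:150560895-150579738, minus strand) encodes a short-lived protein that holds BAK and BIM. In NCI-H716 its level was 27.6 and 27.1 CPM in the controls and 32.1 and 33.8 CPM with Z325. Both Z325 libraries lay above both controls, a separation upwards that 24.3% of all genes tested in this line also had. The log2 fold change was 0.27 (SE 0.19, 95% interval -0.15 to 0.69, adjusted p = 0.503, edgeR), and it ran from 0.20 to 0.31 over 14 alternative analyses. In HCT116 *MCL1* stood at 51.3 and 45.2 CPM in the controls and 48.4 and 56.7 CPM with Z325, and the groups overlapped. Its log2 fold change was 0.12 (SE 0.21, adjusted p = 0.796, edgeR). *MCL1* was the most abundant of the 4 members in HCT116, at 7.87 ± 0.972 FPKM in the controls (SD, n = 2).

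*BCL2L1* (ENSG00000171552, chr20:31664452-31723989, minus strand), the gene of BCL-XL, was measured in NCI-H716 only. Its counts were 52 and 32 in the controls and 60 and 57 with Z325, or 3.94, 3.1, 4.58 and 2.86 CPM. The Z325 libraries were the highest and the lowest of the 4, and the log2 fold change was 0.06 (SE 0.42, adjusted p = 0.955, edgeR), a value that turned negative under 6 of the 14 alternatives. Of its exon bases 41.3% are shared with *ABALON* on the opposite strand, which was listed at 0 in all 4 libraries. The library protocol does not mark strand, so reads there cannot be assigned by strand.

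The effectors were scarce in NCI-H716. *BAK1* (ENSG00000030110, chr6:33572547-33580293, minus strand) and *BAX* (ENSG00000087088, chr19:48954815-48961798, plus strand) encode the proteins that form the pore, and *BOK* (ENSG00000176720, chr2:241551424-241574131, plus strand) a related effector that the anti-apoptotic members hold less well. *BAK1* had 20 and 17 counts in the controls and 21 and 19 with Z325, with overlapping levels and a log2 fold change of -0.32 (SE 0.59, adjusted p = 0.826, edgeR). *BAX* had 11 and 7 counts in the controls and 3 and 9 with Z325, too few to be tested. *BOK* had 2 and 1 counts in the controls and 3 and 1 with Z325, at or under the floor of 3 counts in every library, and no fold change is given.

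In HCT116 *BAK1* had 41 and 48 counts in the controls and 24 and 12 with Z325, or 2.97, 3.68, 1.88 and 3.44 CPM. The shallow library lay between the controls, and the log2 fold change was -0.39 (SE 0.59, adjusted p = 0.752, edgeR). *BOK* had 90 and 73 counts in the controls and 68 and 10 with Z325, or 6.51, 5.6, 5.32 and 2.86 CPM. Both Z325 libraries lay below both controls, as they did for 29% of all genes tested in HCT116, and the second of them rests on 10 counts. The change was -0.50 on the log2 scale (SE 0.46, adjusted p = 0.566, edgeR), and it was -0.16 without Z325 replicate 2. In control cells the FPKM of *BOK* was 2.29 ± 0.319 and that of *BAK1* 1.52 ± 0.181 (SD, n = 2), with ranges that overlapped once the Z325 libraries were included. The 2 lines were quantified separately, so their FPKM values are given side by side and not tested. The HCT116 values are also scaled to totals over the listed part of the genome only. They therefore read higher than on a total over all genes, and like values in the 2 lines do not mean like levels.

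Among the BH3-only genes, *BID* (ENSG00000015475, chr22:17734138-17774770, minus strand) encodes the protein that caspase-8 cleaves to carry a death receptor signal to the mitochondrion. In NCI-H716 it stood at 110 and 100 CPM in the controls and 87.4 and 69 CPM with Z325, from 1033 to 1449 counts a library. Both Z325 libraries were below both controls, as for 25.1% of all genes tested. The log2 fold change was -0.43 (SE 0.18, 95% interval -0.83 to -0.02, adjusted p = 0.276, edgeR). Over the edgeR, DESeq2 and limma alternatives that kept all libraries and assumed no pairing of replicates, its adjusted p ran from 0.259 to 0.454. With 1 library left out the log2 fold change ran from -0.60 to -0.25.

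*BAD* (ENSG00000002330, chr11:64269830-64284704, minus strand) encodes the BH3-only protein that AKT and RSK phosphorylate and that binds BCL-XL. Its level in NCI-H716 was 23.2 and 11.4 CPM in the controls and 11.5 and 6.73 CPM with Z325. Control replicate 1 stood far above the other control, and Z325 replicate 1 lay just above control replicate 2, so the groups overlapped. The log2 fold change was -0.95 (SE 0.36, 95% interval -1.76 to -0.14, adjusted p = 0.239, edgeR). It was -0.33 without control replicate 1 and -0.59 without Z325 replicate 2, and -1.36 with an adjusted p = 0.00192 without Z325 replicate 1. *GPR137*, on the opposite strand, shares 23.7% of the exon bases of *BAD* and had 22 counts in control replicate 1 and 3 to 6 in the other 3 libraries, so the value of *BAD* is uncertain where the 2 overlap.

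*PMAIP1* (ENSG00000141682, chr18:59899996-59904305, plus strand) encodes NOXA, which binds MCL-1 and is a known target of ATF4. It stood at 75.6 and 69.8 CPM in the NCI-H716 controls and 88.6 and 70.5 CPM with Z325. Z325 replicate 1 was the highest library and Z325 replicate 2 lay between the controls. The log2 fold change was 0.13 (SE 0.18, 95% interval -0.27 to 0.53, adjusted p = 0.765, edgeR), and it was -0.03 without Z325 replicate 1. *BBC3* (ENSG00000105327, chr19:47220822-47232766, minus strand), the gene of PUMA, had 0 counts in 3 NCI-H716 libraries and 1 in Z325 replicate 2.

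*BCL2L11* (ENSG00000153094, chr2:111119378-111168444, plus strand) encodes BIM, which binds every anti-apoptotic member and is destabilised after phosphorylation by ERK. It had the smallest p of the members in HCT116, where its counts were 128 and 114 in the controls and 43 and 24 with Z325, or 9.26, 8.74, 3.36 and 6.88 CPM. Both Z325 libraries were below both controls, as for 29% of all genes tested in HCT116. Z325 replicate 1 was far more so than the shallow Z325 replicate 2. Its log2 fold change was -0.89 (SE 0.45, 95% interval -1.91 to 0.13, unadjusted p = 0.0806, adjusted p = 0.272, edgeR). Without Z325 replicate 2 it was -1.39 with an adjusted p = 0.0232, and without Z325 replicate 1 it was -0.40 with an adjusted p = 0.624. The FPKM of *MCL1* was 5.93 and 5.53 times that of *BCL2L11* in the HCT116 controls and 15.4 and 8.83 times with Z325. Against *BOK* it was 3.4 and 3.48 times, then 3.92 and 8.53 times. Against *BAK1* the groups overlapped, at 6.16 and 4.36 times, then 9.17 and 5.87 times. No share over other gene pairs was computed, and these ratios are a description only.

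In NCI-H716 *BCL2L11* had 93 and 42 counts in the controls and 71 and 98 with Z325, or 7.04, 4.07, 5.42 and 4.93 CPM. The Z325 libraries lay between the controls, and the log2 fold change was -0.11 (SE 0.36, adjusted p = 0.905, edgeR), turning to 0.35 without control replicate 1. By FPKM the same libraries read 2.54 and 2.41 in the controls and 1.26 and 1.74 with Z325, and the groups did not overlap. FPKM divides the count by a transcript length that RSEM assigns in each library, a mean over isoforms, and that length was 2962 and 1963 bases in the controls and 4527 and 3117 bases with Z325. On log2(FPKM + 0.1) with limma the difference was -0.70 (SE 0.38, adjusted p = 0.46). *BAX* showed the opposite shift, with 0.833 and 0.679 CPM in the controls and 0.229 and 0.452 CPM with Z325, below both controls. Its FPKM was 0.73 and 0.62, then 0.28 and 1.12, and Z325 replicate 2 was then the highest library, with an assigned length of 682 bases beside 1358 in both controls. From 3 to 11 counts of *BAX* a library, the isoform shares behind those lengths are poorly measured. For *BID*, by comparison, the assigned length ran from 993 to 1109 bases.

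**Figure D3:**
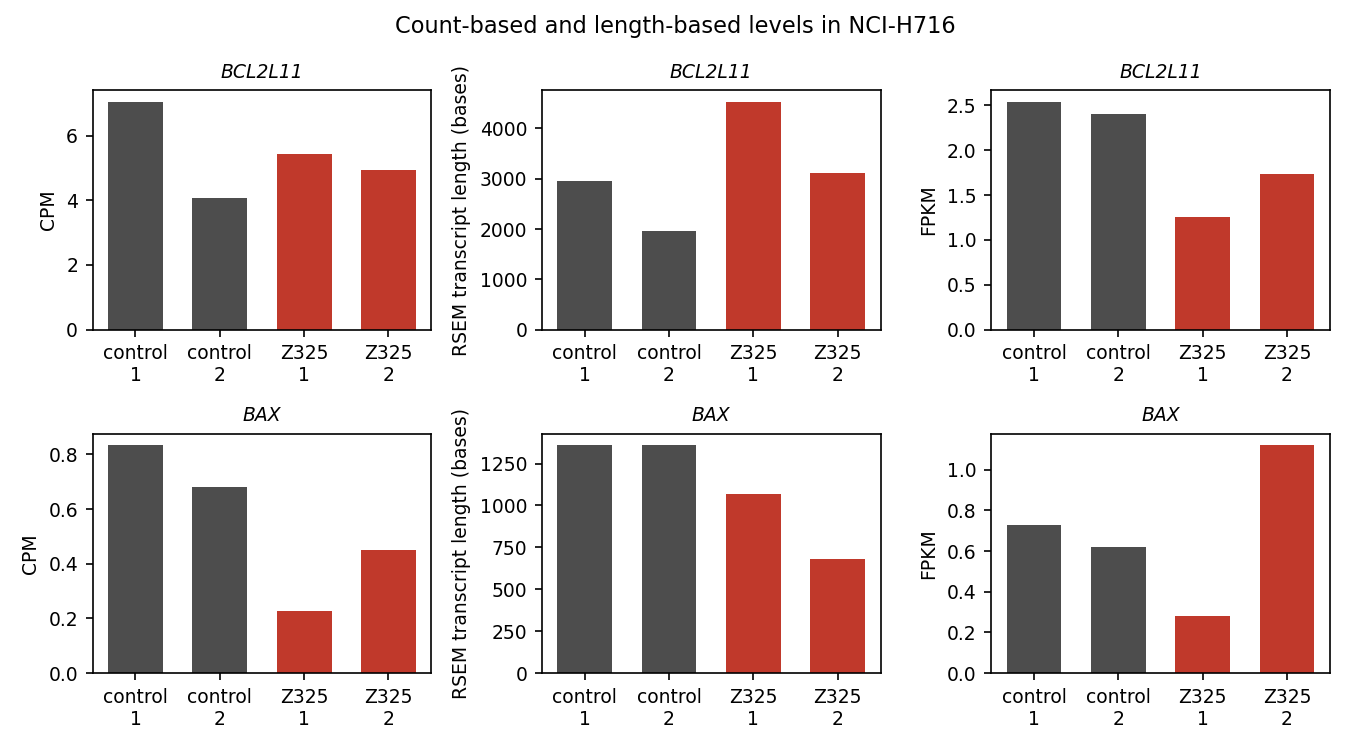
CPM (left), transcript length assigned by RSEM in bases (middle) and FPKM (right) of *BCL2L11* and *BAX* in the 4 NCI-H716 libraries, each bar 1 library on an axis from 0, grey for control and red for Z325. For *BCL2L11* the Z325 libraries lie between the controls by CPM and below both by FPKM, and for *BAX* Z325 replicate 2 is below both controls by CPM and above both by FPKM.

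Of the *BCL2L11* exon bases 10.8% (727 bases) are shared with the noncoding *MIR4435-2HG* on the opposite strand, so its values are uncertain there. *MIR4435-2HG* had more reads than *BCL2L11*, at 28.8 to 38.4 CPM in HCT116 and 40.1 to 57.8 CPM in NCI-H716. Its log2 fold change was 0.08 (adjusted p = 0.888) in HCT116 and 0.35 (adjusted p = 0.376) in NCI-H716, by edgeR, and its part in the counts of *BCL2L11* was not tested. Smaller overlaps were 7.5% of the exon bases of *BOK* with *BOK-AS1*, 5.27% of *MCL1* with *ADAMTSL4-AS1* and 4.11% of *BAK1* with *GGNBP1*, and each of these partners had at most 6 counts in any library.

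**Figure D4:**
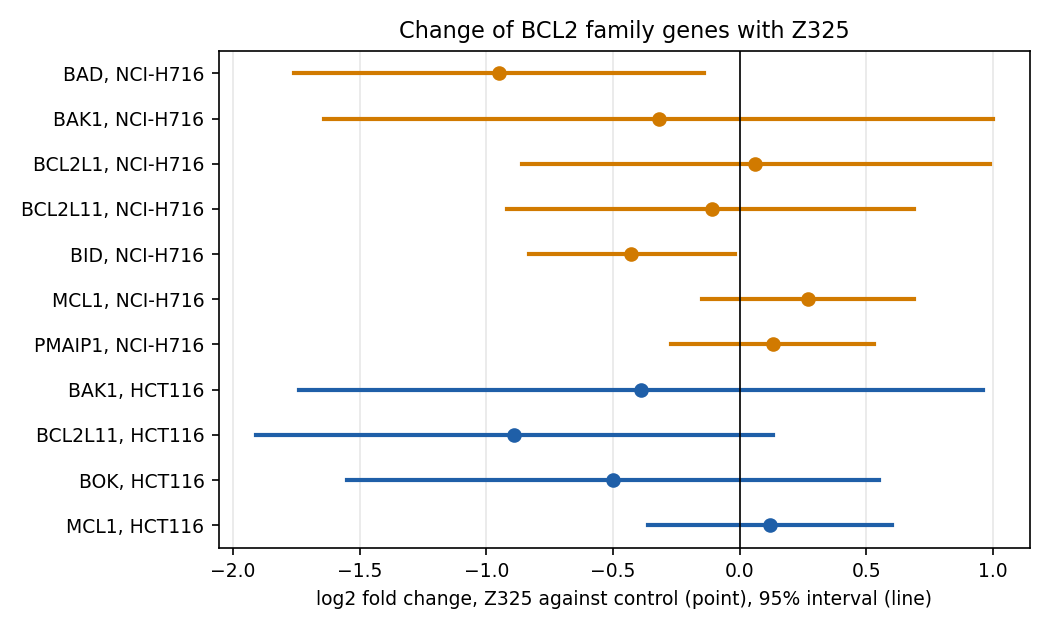
Log2 fold change of Z325 against control (points) with 95% intervals (lines) for the 7 members tested in NCI-H716 (orange) and the 4 tested in HCT116 (blue). Only the intervals of *BAD* (-1.76 to -0.14) and *BID* (-0.83 to -0.02) lie to 1 side of 0 before adjustment, and no member was called after it.

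Ratios between members were also followed in each NCI-H716 library, as a description. The FPKM ratio of *BID* to *MCL1* was 18.6 and 17.5 in the controls and 12.6 and 8.58 with Z325, without overlap. That of *BAD* to *BCL2L1* was 19.6 and 13.2, then 9.48 and 8.57, also without overlap. The ratio of *PMAIP1* to *MCL1*, a BH3-only protein and its main partner, was 5.9 and 6.12 in the controls and 5.89 and 4.51 with Z325. All Z325 values of these 3 ratios lay below those of the controls, for *PMAIP1* to *MCL1* by as little as 5.89 against 5.9. That of *BID* to *PMAIP1* was also lower without overlap, as was that of *BCL2L11* to *MCL1* by FPKM. By CPM the groups overlapped for *BCL2L11* to *MCL1* and for *PMAIP1* to *MCL1*. *BCL2L11* itself read 7.04 and 4.07 CPM in the controls and 5.42 and 4.93 CPM with Z325. The FPKM ratio of *MCL1* to *BCL2L1* overlapped, at 4.41 and 5.64 in the controls and 4.96 and 8.02 with Z325. The ratios share members and depend on the transcript lengths behind FPKM, and no share over other gene pairs was computed.

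The question whether the response differed between the lines was tested for the 4 members listed in both, as the interaction of treatment and line over the 8 libraries. None of the 4 was called, against 0.0654% of the 7642 genes tested, and 0 had an unadjusted p under 0.05, against 14.3%. For *BCL2L11* the change in HCT116 minus that in NCI-H716 was -0.77 (SE 0.63, 95% interval -2.14 to 0.59, adjusted p = 0.6, edgeR). For *MCL1* it was -0.14 (SE 0.28, 95% interval -0.75 to 0.47, adjusted p = 0.901, edgeR). For *BAK1* it was -0.06 with an interval from -1.93 to 1.81, and for *BOK* -0.48 with an interval from -3.42 to 2.46. These intervals leave room for differences of more than 2-fold in either direction for *BAK1* and *BOK*. For *BOK* the NCI-H716 side lay at or under the floor of 3 counts in every library, so its test can tell little.

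Other genes of the same pathway were read from 5 lists of 54 genes in all. In NCI-H716 44 of them were tested and 0 were called by edgeR, while at an unadjusted p under 0.05 there were 5 with higher and 7 with lower levels, where 7.59% and 9.27% of all genes were. DESeq2 called 3, *DDIT3* and *ATF4* higher and *MTCH2* lower. In HCT116 23 are listed, 21 were tested and 1 was called, *USP13*, lower with Z325 as were 2.94% of all genes. At an unadjusted p under 0.05 there 0 had higher and 4 had lower levels, where 11.2% and 12.7% of all genes had.

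Of the 13 other BCL2 family genes, 8 were tested in NCI-H716, with 5 positive and 3 negative log2 fold changes and a median of 0.17. *BCL2L12*, an atypical family member, had the smallest p, at 15.8 and 9.6 CPM in the controls and 7.25 and 4.57 CPM with Z325 (log2 fold change -1.12, SE 0.34, adjusted p = 0.169, edgeR). Its exons overlap those of *IRF3* on the opposite strand over 25.9% of their length, and it is uncertain. *BCL2* itself, the founding anti-apoptotic gene, was at 1.44 and 2.23 CPM in the controls and 2.52 and 3.12 CPM with Z325 (0.63, adjusted p = 0.542, edgeR). *BCL2L2*, which encodes BCL-W, stood at 8.73 to 9.65 CPM with a log2 fold change of 0.08. For *BCL2L13* and *BNIP3L*, both linked to mitophagy, it was 0.31 and 0.28, and for the BH3-only genes *BMF* and *BIK* it was 0.26 and -0.55, from under 1.5 CPM in every library. The remaining 5 were not tested, *HRK* at 4 to 10 counts, *BNIP3*, *BCL2L14* and *BCL2L10* at 0 to 2 counts and *BCL2A1* at 0 in all 4 libraries.

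*BCL2L15*, a little-studied family member of the gut epithelium, was the member of that list with the smallest p in HCT116. Its counts were 101 and 65 in the controls and 20 and 6 with Z325, or 7.3, 4.99, 1.56 and 1.72 CPM. Both Z325 libraries lay well below both controls, with a log2 fold change of -1.91 (SE 0.52, adjusted p = 0.0681, edgeR), and 3 of 12 alternatives called it lower. Those alternatives were the fit without a filter and the fits that left out a Z325 library. In NCI-H716 *BCL2L15* stood at 1.67 and 3.39 CPM in the controls and 1.68 and 0.955 CPM with Z325 (-0.95, adjusted p = 0.449, edgeR). The other gene of the list present in HCT116, *BNIP3L*, had a log2 fold change of 0.09. Of all genes tested in HCT116, 29% had both Z325 libraries below both controls.

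All 12 genes of the apoptosome and inhibitors of apoptosis were tested in NCI-H716, where 9 were positive and 3 negative with a median of 0.29. *BIRC5*, the gene of survivin, stood at 173 and 171 CPM in the controls and 131 and 115 CPM with Z325 (log2 fold change -0.49, adjusted p = 0.191, edgeR). *DIABLO*, whose protein frees caspases from XIAP, had -0.51 (adjusted p = 0.241), with 31.5% of its exon length also annotated to an unnamed gene on the same strand. *XIAP*, the inhibitor itself, had 0.58 (adjusted p = 0.27), both by edgeR. In HCT116 5 were tested, 2 positive and 3 negative, and 0 were called, where 51.8% of all genes were negative and 5.78% were called. *CASP9*, the initiator caspase of the apoptosome, had the smallest p there (-0.86, adjusted p = 0.249, edgeR).

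Of the 9 genes for outer membrane channels and docking, 8 were negative in NCI-H716 and 7 had both Z325 libraries below both controls, with a median of -0.35. Over all genes tested in this line 50.6% were negative and 25.1% were separate and lower. *MTCH2*, the receptor through which truncated BID reaches the membrane, had the smallest p, at 582 and 516 CPM in the controls and 381 and 316 CPM with Z325 (log2 fold change -0.66, SE 0.17, adjusted p = 0.123, edgeR). *TOMM40*, *MTX2* and *VDAC3* also had an unadjusted p under 0.05 with lower levels, as 9.27% of all genes had, with log2 fold changes of -0.68, -0.42 and -0.35 and adjusted p-values of 0.245, 0.27 and 0.289 in edgeR. In HCT116 *VDAC3* (-0.38, adjusted p = 0.12) and *VDAC1* (-0.35, adjusted p = 0.134) were the lowest of 5 tested, while *MTX2* was positive there, at 0.16. The *VDAC* genes have processed pseudogenes and are uncertain in this respect.

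Among the genes that control turnover of the family proteins, *USP13*, a deubiquitinase that stabilises MCL-1, was called lower in HCT116 by edgeR. Of its exon bases 16.1% are also annotated to an unnamed gene on the same strand, so its counts are uncertain there. *USP13* stood at 35.4 and 36.5 CPM in the controls and 16.6 and 18.6 CPM with Z325, a log2 fold change of -1.04 (SE 0.25, adjusted p = 0.0479, edgeR). The call was lost with limma on FPKM or TPM and in 9 of 14 alternatives in all, over which the log2 fold change ran from -1.09 to -0.66. In NCI-H716 it was 0.06 (adjusted p = 0.893, edgeR), and the difference between the lines was -1.09 (SE 0.26, 95% interval -1.66 to -0.53, adjusted p = 0.13, edgeR), which DESeq2 alone of the alternatives called (-1.0, adjusted p = 0.0495). The 7 turnover genes tested in NCI-H716 all lay between 0.05 and 0.25, and 0 had an unadjusted p under 0.05, against 16.9% of all genes. *FBXW7*, a ubiquitin ligase of MCL-1, had 0.18 in NCI-H716 and -0.18 in HCT116.

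Of 11 transcription factors known to act on BH3-only genes, 8 were tested in NCI-H716 with a median log2 fold change of 0.45. Among all genes tested in this line, 24.3% had both Z325 libraries above both controls. *DDIT3*, which encodes CHOP, was at 160 and 186 CPM in the controls and 349 and 294 CPM with Z325, both Z325 libraries well above the controls (0.90, SE 0.17, adjusted p = 0.057, edgeR), and 7 of 14 alternatives called it higher. *ATF4*, the factor upstream of *DDIT3* in the integrated stress response, was at 169 and 181 CPM in the controls and 281 and 379 CPM with Z325 (0.91, SE 0.18, adjusted p = 0.0665, edgeR), and 4 of 14 called it higher. Both tallies include a fit without Z325 replicate 1 and the replicate block, a pairing that the labels do not establish. They also include the fit without a filter, which called 777 genes in all against 71 in the main fit. No limma analysis called either gene. The exons of *DDIT3* overlap *MARS1* on the opposite strand over 27.2% of their length, and it is uncertain. *MYC* (0.57, adjusted p = 0.267) was the third factor with a higher level at an unadjusted p under 0.05 in edgeR, where 7.59% of all genes were. In HCT116 5 factors were tested and 0 had an unadjusted p under 0.05, against 23.9% of all genes there. Log2 fold changes were 0.56 for *ATF3*, 0.24 for *MYC* and *FOXO3*, 1.10 for *JUN* and -1.58 for *TP73*. *JUN* had only 19 and 3 counts in the controls and 28 and 4 with Z325 (95% interval -1.18 to 3.38). *TP73* had 18 and 31 counts in the controls and 12 and 0 with Z325 (95% interval -3.98 to 0.82). That 0 is in the shallow Z325 replicate 2, where it allows up to 0.874 CPM. The values of *JUN* and *TP73* are therefore poorly measured. *ATF4* and *DDIT3* are not in the part of the genome analysed for HCT116.

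**Figure D5:**
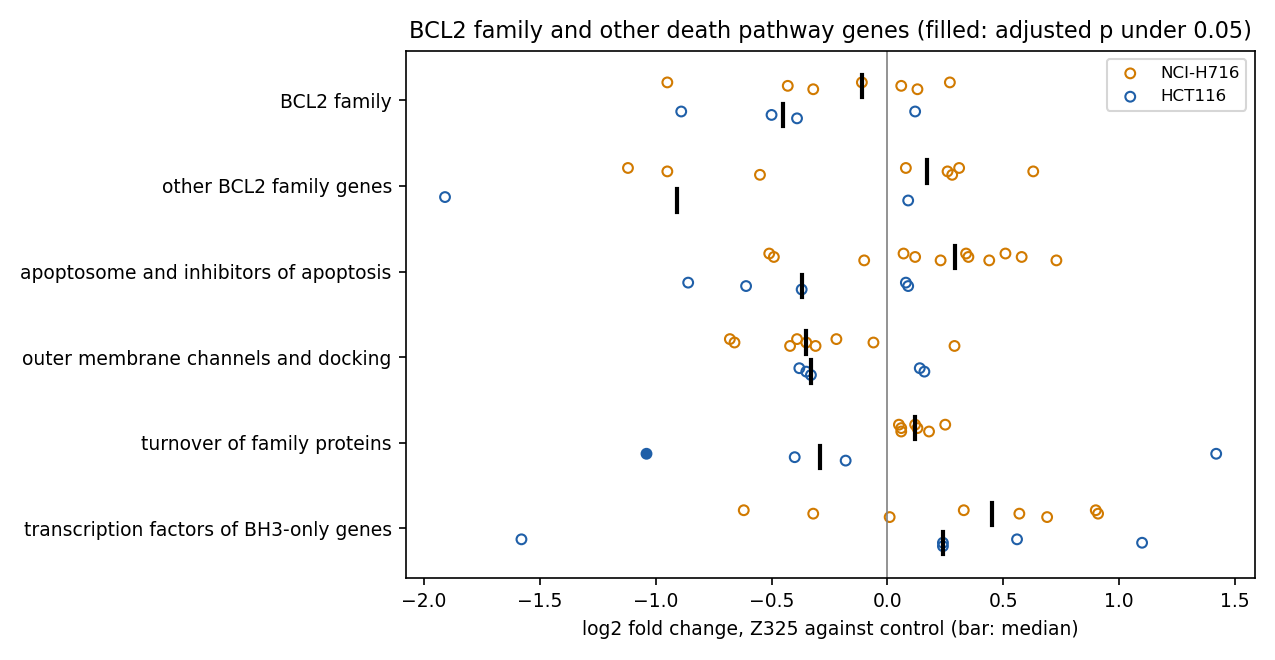
Log2 fold change of Z325 against control for every tested gene of the BCL2 family and of 5 lists of related genes, in NCI-H716 (orange) and HCT116 (blue), with black bars for the median and a filled point for an adjusted p under 0.05. The filled point is *USP13* in HCT116 at -1.04, and in NCI-H716 8 of the 9 outer membrane genes lie left of 0.

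The genes whose pattern over the 4 libraries of a line was most like that of the member with the smallest p were found by the root mean square difference of centred log2(CPM + 1). For *BAD* in NCI-H716, among 7487 protein-coding genes, these were *U2AF1* (0.0281), *TOMM34* (0.0478) and *PRR3* (0.0582). *U2AF1* read 61.7, 29.6, 29.9 and 18.3 CPM in control replicates 1 and 2 and Z325 replicates 1 and 2, with the same high first control as *BAD*, and it has a near-identical copy that makes its count uncertain. For *BCL2L11* in HCT116, among 3515 genes, they were *SCD5* (0.0195), *TSPAN12* (0.0387) and *BOP1* (0.0544). *SCD5* read 18.3, 17.5, 7.43 and 14.3 CPM, low in Z325 replicate 1 as *BCL2L11* was. These 4 values per gene share their libraries, and likeness over 4 points is a description only.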

How the data were processed

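Full-length cDNA of about 100 cells per reaction was sequenced in 8 libraries, 2 per group of line and treatment, and groups were taken from the sample labels. For NCI-H716 the authors deposited RSEM output per library, with each gene's expected count, TPM and FPKM for 63241 genes, of which 62666 matched a symbol in GENCODE v44. For HCT116 the authors deposited raw counts per gene. That table ends partway on chromosome 9, 4 broken lines of 28047 were left out, and 8719 of 20046 protein-coding genes (43.5%) are listed, so totals and normalization rest on that part. The submitters' processing notes name hg38, Bowtie2 2.5.0 and featureCounts, whereas the study's methods name STAR, RSEM and GRCh38; how reads shared by genes were treated is not given in the sources used here.

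Expected counts were rounded. Each line was fitted alone with edgeR 4.0.16 (TMM, filterByExpr, quasi-likelihood test, two-sided, Benjamini-Hochberg), in R 4.3.3; TMM-normalised CPM are shown. FPKM and TPM of HCT116 were computed from counts and exon lengths. The scripts were tested on simulated data. The interaction was fitted over all 8 libraries. Alternatives used DESeq2 1.42.0, limma 3.58.1 on log2(FPKM + 1), log2(FPKM + 0.1) and log2(TPM + 1), other filters and scalings, thinning to equal depth, a replicate block and leaving out each library. The study's own test was a two-tailed test on FPKM.

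The members and lists were chosen with earlier results of these data known. Named genes are all members, the other BCL2 family genes, the 4 smallest p of each list in a line, and the 3 genes most like the member with the smallest p, with a mean of at least 10 CPM. Genes outside that rule (*COL3A1*, *COL1A1*, *EPCAM*, *CDH17*, *VIL1*, *CDX1*, *FOXO3* of HCT116 and the overlapping partners) were named after their values were seen. Depth limits precision most in HCT116 Z325 replicate 2; floors of 3 counts cover counting error only. Coordinates are GRCh38. A few list genes that the rule would name are not reported here.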

Additional observations from a re-analysis of the deposited data

How the results depend on the processing

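Over up to 14 alternatives each, 183 of 204 fold changes of members kept their direction and their side of the threshold, 16 reversed and 5 gained a call. *BAD* was called without a filter on low counts (-0.93, adjusted p = 0.0496, edgeR) and without Z325 replicate 1 (0.00192), and *BCL2L11* of HCT116 without Z325 replicate 2 (-1.39, 0.0232). In NCI-H716 the log2 fold changes that reversed were those of *BCL2L1* (limma on FPKM + 1 -0.02, on FPKM + 0.1 -0.03, on TPM + 1 -0.05, at a mean FPKM of at least 1 -0.02, without control replicate 2 -0.08, without Z325 replicate 1 -0.29, range with 1 library left out -0.29 to 0.39), *BAK1* (thinned 0.01, without Z325 replicate 2 0.04, range -0.71 to 0.04), *BCL2L11* (without control replicate 1 0.35, range -0.44 to 0.35) and *PMAIP1* (without Z325 replicate 1 -0.03, range -0.03 to 0.30). In HCT116 it was *BAK1* without Z325 replicate 1 (0.03, range -0.79 to 0.03). Between the lines they were *BAK1* (DESeq2 0.04, without HCT116 control replicate 2 0.07, without HCT116 Z325 replicate 1 0.27, without NCI-H716 Z325 replicate 1 0.30, range -0.48 to 0.30) and *BOK* (without NCI-H716 Z325 replicate 1 0.70, range -1.32 to 0.70). The cause was not tested.

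Counts of calls moved more. In NCI-H716 71 genes were called (57 higher, 14 lower), against 364 by DESeq2, 777 without a filter (290 higher, 487 lower), 6, 6 and 6 by limma on FPKM + 1, FPKM + 0.1 and TPM + 1, 8 at a mean FPKM of at least 1, and 38 to 1386 with 1 library left out (38 without control replicate 1, 1386 without Z325 replicate 1). Members called were 1 without a filter and 0 to 1 with a library left out. List genes called were 0, against 3 by DESeq2, 1 with library size scaling, 1 at a minimum of 10 counts, 4 without a filter and 0 to 7 with a library left out. In HCT116 375 genes were called, against 767 by DESeq2, 615 at a minimum of 10 counts, 683 without a filter, 47, 37, 46 and 35 by the 4 limma analyses, and 23 to 1076 with a library left out, with 0 to 1 members. List genes called were 1, against 2 without a filter, 0 by limma, 0 thinned, and 0 to 4 with a library left out. The interaction called 5 genes, against 137 by DESeq2, 26 at a minimum of 10 counts, 106 without a filter and 0 to 61 with a library left out, and 0 members throughout.

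The labels give the groups the same replicate numbers, but nothing says that a number marks a shared culture. Same-numbered libraries deviated with r = 0.198 over 14142 genes in NCI-H716 and -0.0308 over 6491 in HCT116, which does not establish a pairing from 2 numbers. With the replicate block 2397 genes were called in NCI-H716 (1061 higher, 1336 lower), with 2 members, *BAD* (-0.90, adjusted p = 0.00165, edgeR) and *BID* (-0.43, 0.0111), and 13 list genes. With the block HCT116 gave 381 genes, 0 members and 0 list genes, and the interaction 12 genes.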
